A study of Rattus norvegicus with 6 samples.

Results

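Tmprss2, Tmprss4, St14 and Prss8, which encode membrane-anchored serine proteases, and Spint1 and Spint2, which encode their Kunitz-type inhibitors, were followed in nuclei of rat colon. The 6 genes were chosen by name, with earlier results of these data known, and all 6 were found among the 17388 genes counted. The nuclei came from flash-frozen colon of wild-type male Wistar rats, with 3 rats in each of 3 groups. Sham rats had drinking water only, without dextran sulfate sodium (DSS), a polymer that injures the colon epithelium. Placebo rats drank 5% DSS for 3 days, and over the next 4 days were given drug-free capsules 2 times a day. PL8177 rats had the same DSS course and received capsules with 50 µg of PL8177, a melanocortin receptor agonist, on the same schedule. Nuclei that the authors assigned to enterocytes, the absorptive cells of the colon epithelium, were used for the treatment comparisons, and nuclei assigned to T cells served as the background from another cell type.

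These proteases sit at the surface of epithelial cells, are made as inactive precursors, and cut other membrane proteins after they have been activated. Matriptase, the product of St14, and prostasin, the product of Prss8, activate each other and are needed for a tight epithelial barrier. Their inhibitors HAI-1 (Spint1) and HAI-2 (Spint2) bind the active enzymes, and loss of HAI-2 in the gut leads to epithelial failure. TMPRSS2 is known for cutting viral surface proteins and the protease-activated receptor PAR2, and TMPRSS4 for cutting the epithelial sodium channel.

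Levels are given in UMIs (unique molecular identifiers, tags that count captured RNA molecules) per 10000 UMIs of all genes, summed over the nuclei of a rat. The 8782 enterocyte nuclei fell into 9 rats with 304 to 1531 nuclei and 319125 to 4123319 UMIs each. The 1018 T cell nuclei gave 8070 to 779009 UMIs per rat. Markers of enterocytes summed to 142 to 299 UMIs per 10000 in the enterocyte nuclei of every rat and T cell markers to at most 0.846. The placebo rat GR23 stood apart in the T cell tables. It held 685 of the 1018 nuclei, with enterocyte markers at 194 and T cell markers at 2.09 UMIs per 10000, against 18.3 to 77.7 and 25.3 to 58.2 in the other 8 rats. T cell table values that rest on that rat are given with and without it. Levels of different genes were not compared with each other, since gene length was not taken into account.

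Promoter sequences were found for 3 of the 6 genes, Tmprss2, Spint1 and Spint2, in the RefSeq sequences of the assembly GRCr8, which is not the assembly used for counting. They are shown because they were the only ones found, and no link between their letters and expression was tested. Each runs 5′ to 3′ from 250 bases before to 50 bases after the start of the gene. Capitals mark CAGGTG, an E-box, on either strand. The Tmprss2 promoter lies at chr11:50443065-50443364 on the minus strand, that of Spint1 at chr3:126685031-126685330 on the plus strand, and that of Spint2 at chr1:93708042-93708341 on the minus strand.
Tmprss2: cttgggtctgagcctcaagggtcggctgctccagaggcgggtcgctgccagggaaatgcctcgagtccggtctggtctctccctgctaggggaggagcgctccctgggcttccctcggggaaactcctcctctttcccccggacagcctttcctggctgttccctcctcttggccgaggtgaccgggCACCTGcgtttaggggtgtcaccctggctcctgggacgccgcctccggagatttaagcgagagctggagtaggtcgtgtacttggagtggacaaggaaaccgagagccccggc
Spint1: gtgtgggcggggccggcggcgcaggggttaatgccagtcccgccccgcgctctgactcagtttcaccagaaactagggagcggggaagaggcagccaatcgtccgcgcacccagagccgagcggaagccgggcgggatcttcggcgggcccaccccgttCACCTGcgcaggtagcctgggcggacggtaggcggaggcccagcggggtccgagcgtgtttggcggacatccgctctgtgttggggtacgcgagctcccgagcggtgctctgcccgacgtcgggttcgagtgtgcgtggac
Spint2: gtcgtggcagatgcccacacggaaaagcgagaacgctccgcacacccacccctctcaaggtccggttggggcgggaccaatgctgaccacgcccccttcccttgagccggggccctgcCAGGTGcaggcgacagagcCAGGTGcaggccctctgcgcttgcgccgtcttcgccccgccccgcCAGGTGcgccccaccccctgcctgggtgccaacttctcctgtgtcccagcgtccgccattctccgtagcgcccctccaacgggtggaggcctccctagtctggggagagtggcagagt
The E-box was present 1 time in the promoters of Tmprss2 and Spint1 and 3 times in that of Spint2, and 18.8% of all 33469 promoters of this length held it at least 1 time. The GC box GGGCGG was found 4 times in the Spint1 promoter and 2 times in the Spint2 promoter, was not in the Tmprss2 window, and occurred in 33.1% of all promoters. None of the 3 windows held, on either strand, the ETS core GGAAGT (in 22.6% of all promoters), the GATA factor letters AGATAA (11.6%), the CDX factor letters TTTATG (12.7%), the TATA box TATAAA (14.2%) or AGAACA (20.7%), which is part of the androgen response element. The E-box was put in capitals because it was the motif of the 7 searched that all 3 windows held. On the opposite strand TTTATG reads CATAAA, which shares most of its letters with TATAAA.

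Tmprss2 had its lowest mean level in placebo enterocytes. Its level was 42.1, 44.6 and 36.4 UMIs per 10000 in the sham rats GR12, GR13 and GR15. In the placebo rats GR22, GR23 and GR24 it was 23.2, 37.0 and 32.4. In the PL8177 rats GR41, GR43 and GR44 it was 46.1, 37.1 and 49.7. Every PL8177 rat stood above every placebo rat, though the lowest PL8177 rat lay close to the placebo rat GR23, and the lowest sham rat lay just under it. The means were 41.0 ± 4.20 (SD, n = 3) in sham, 30.9 ± 7.03 in placebo and 44.3 ± 6.51 in PL8177, so that the sham mean was 1.33 times and the PL8177 mean 1.44 times the placebo mean. The exact two-sided permutation test over rats gave p = 0.2 for sham and p = 0.1 for PL8177, and 0.1 is the smallest p that 3 against 3 rats allow. Without rat GR23 the ratios were 1.47 and 1.59 and all sham rats also stood above the remaining placebo rats. Rat GR23 had 304 enterocyte nuclei, while its T cell table held 685 nuclei with enterocyte markers at 194 UMIs per 10000. Those 685 nuclei had Tmprss2 at 57.0, above the enterocyte level of every PL8177 rat. The separation of PL8177 from placebo rats thus rests on the authors' assignment of nuclei, and it was not tested with those nuclei counted as enterocytes. The order from low to high was placebo, sham, PL8177, and sham and PL8177 differed by less than their spread (exact permutation p = 0.4).

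The share of nuclei with a Tmprss2 UMI, at equal depth, had the same order of means. Before any correction for depth, 72.2% to 97.4% of sham, 80.6% to 85.4% of placebo and 88.4% to 91.4% of PL8177 enterocyte nuclei in a rat held at least 1 Tmprss2 UMI. After each nucleus was thinned to 300 UMIs, which left out 562 of 8782 shallower nuclei, the shares were 65.9% ± 5.53 (SD, n = 3), 53.1% ± 9.63 and 66.7% ± 4.82. In T cell nuclei treated the same way, of which 63 of 1018 were too shallow, the shares were 16.8% ± 4.41 in sham, 41.7% ± 28.7 in placebo with rat GR23 included, and 26.9% ± 8.83 in PL8177 rats. The placebo rats other than GR23 had shares of 25% and 25.3%. Median depth before thinning was 437 to 2331 UMIs in enterocyte and 364 to 2091 in T cell nuclei.

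St14, too, had its lowest mean level in placebo rats. Its enterocyte level was 14.99, 13.1 and 9.49 UMIs per 10000 in the sham rats, 11.2, 8.81 and 10.6 in the placebo rats and 14.9, 13.3 and 14.5 in the PL8177 rats. The PL8177 rats did not overlap the placebo rats, while the sham rats overlapped them. The PL8177 mean of 14.2 ± 0.818 (SD, n = 3) was 1.39 times the placebo mean of 10.2 ± 1.23 (exact permutation p = 0.1), and the sham mean was 12.5 ± 2.79 (exact permutation p = 0.3 against placebo). Of genes with at least 50 enterocyte UMIs, 4.62% had every PL8177 rat above every placebo rat. For 2 of the 6 members, Tmprss2 and St14, this was the case. None of the 6 had every sham rat above every placebo rat, against 5.23% of genes.

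Tmprss4 stood between 2.09 and 3.40 UMIs per 10000 in sham rats, 2.29 and 3.52 in placebo rats and 3.08 and 3.94 in PL8177 rats. The sham and placebo ranges overlapped, and the placebo rat GR22 reached into the PL8177 range. The PL8177 mean, 3.62 ± 0.473 (SD, n = 3), was 1.34 times the placebo mean of 2.71 ± 0.698, with an exact permutation p of 0.2.

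Prss8 was scarce. Its level was 0.217, 0.223 and 0.384 UMIs per 10000 in the sham rats, 0.235, 0.282 and 0.215 in the placebo rats and 0.207, 0.264 and 0.351 in the PL8177 rats, from 98, 140 and 173 UMIs in all per group. The groups overlapped throughout. In T cell table nuclei that carried T cell markers, described below, Prss8 reached 0.182 UMIs per 10000 (exact Poisson 95% interval 0.0670 to 0.397, for counting error only). The enterocyte level of Prss8 lay within that interval in all 9 rats. The interval rests on 6 UMIs and is wide. At this depth enterocyte expression of Prss8 could therefore neither be told from background nor be shown to equal it.

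The inhibitors differed in the order of their means, with Spint1 highest in PL8177 and Spint2 highest in sham rats. Spint1 was at 1.91, 3.32 and 2.89 UMIs per 10000 in the sham rats, 2.10, 2.38 and 2.17 in the placebo rats and 2.30, 3.00 and 3.10 in the PL8177 rats. The lowest sham rat was below all placebo rats, and the PL8177 rats were above them except for GR41, which fell between 2 placebo rats. Without rat GR23 all PL8177 rats stood above the placebo rats. Spint2 was at 18.6, 29.6 and 23.1 in the sham rats, 17.7, 15.1 and 22.2 in the placebo rats and 11.3, 15.7 and 25.9 in the PL8177 rats. The PL8177 rats held both the lowest and the second highest Spint2 level of the 9 rats. The mean Spint2 levels were 23.8 ± 5.54 (SD, n = 3) in sham, 18.3 ± 3.59 in placebo rats and 17.6 ± 7.51 with PL8177. Both the sham and the PL8177 rats overlapped the placebo rats (exact permutation p = 0.2 for sham and 0.9 for PL8177 against placebo).

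**Figure D1:**
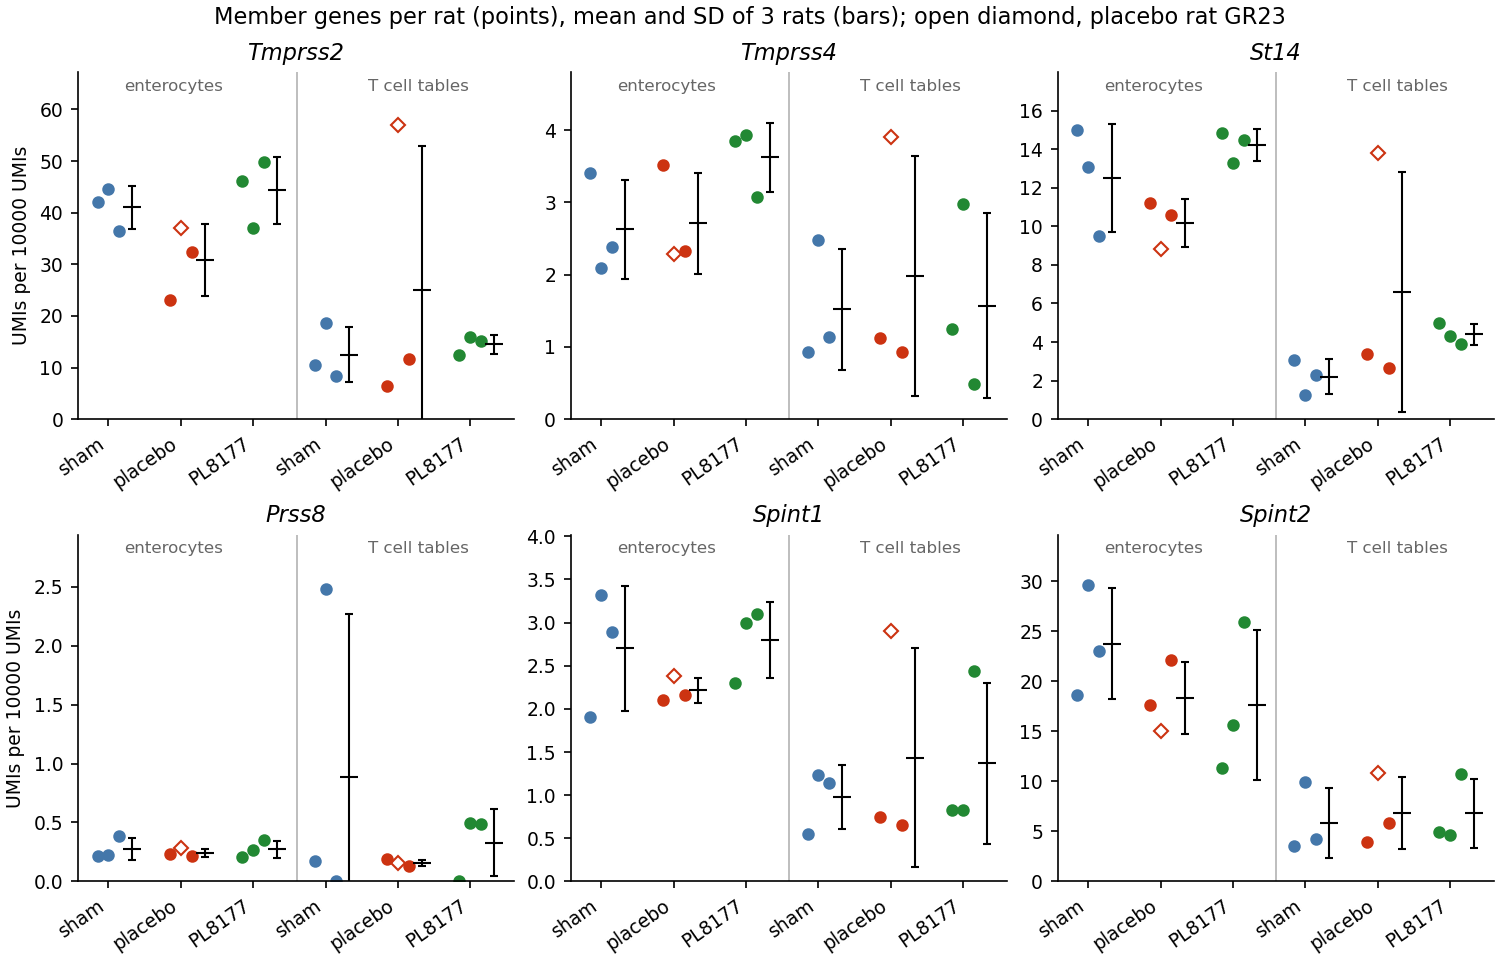
Level of each gene in UMIs per 10000 UMIs (y axis) in enterocyte nuclei and in T cell tables by treatment (x axis); points are rats, the open diamond is rat GR23, and bars give the mean and SD of 3 rats, with bars that reach below 0 shown down to 0. Tmprss2 in enterocytes lies between 23.2 and 49.7, and in the T cell tables it is 57.0 in rat GR23 and at most 18.6 in the other 8 rats.

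A test across all genes was used to ask whether any member differed between treatments beyond the spread of rats. The sums of each rat entered edgeR's quasi-likelihood test under TMM scaling, which sets the bulk of genes to no change, and a gene was called at a Benjamini-Hochberg adjusted p below 0.05 with an absolute log2 fold change above 0.5, as the study did for enterocytes. None of the 6 members was called in any of the 3 comparisons, and neither was any other of the 9424 genes tested (percent called 0). At an unadjusted p below 0.05, 1172 genes passed for sham against placebo, 871 for PL8177 against placebo and 621 for PL8177 against sham. DESeq2 called 115 genes (0.508% of those tested higher and 0.188% lower), 70 (0.303% and 0.121%) and 4 (0.00605% and 0.0182%), none of them a member.

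Against placebo the 6 members all had fold changes above 0 in both comparisons, which share the placebo rats. Their median log2 fold change was 0.45 in sham and 0.54 in PL8177, beside -0.02 and -0.01 over all genes tested. With total UMIs in place of TMM, which moved the median of all genes by -0.14 and -0.16, Tmprss4 turned to -0.05 in sham and Spint2 to -0.06 in PL8177. Tmprss2 had a log2 fold change of 0.58 (95% interval 0.02 to 1.14, edgeR adjusted p = 0.388) in sham and 0.70 (0.14 to 1.26, adjusted p = 0.452) in PL8177. St14 had 0.45 (-0.07 to 0.97, adjusted p = 0.448) and 0.64 (0.12 to 1.16, adjusted p = 0.456). Tmprss4 had 0.10 (-0.44 to 0.63) in sham and 0.57 (0.04 to 1.10) in PL8177. The inhibitor Spint1 had 0.45 (-0.12 to 1.03) and 0.51 (-0.06 to 1.08), and Spint2 had 0.54 (-0.21 to 1.29) and 0.12 (-0.62 to 0.87). Prss8 had the widest intervals of the proteases, 0.30 (-0.45 to 1.05) and 0.34 (-0.37 to 1.06).

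At an unadjusted p below 0.05, 1 member was higher in sham (Tmprss2, edgeR unadjusted p = 0.0428, against an exact permutation p of 0.2), where 6.54% of all genes were higher at that level. In PL8177 3 members were higher (edgeR unadjusted p = 0.0180 for Tmprss2, 0.0192 for St14 and 0.0366 for Tmprss4, against exact permutation p of 0.1, 0.1 and 0.2), where 5.5% of all genes were. The study itself reported Tmprss2 as significantly higher in sham and PL8177 enterocytes, by a test over these nuclei and not over rats. Its direction is therefore not independent evidence.

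No member was called between PL8177 and sham rats. The log2 fold change of Tmprss2 between them was 0.12 (95% interval -0.44 to 0.68), that of St14 0.19 (-0.33 to 0.71) and that of Spint1 0.06 (-0.51 to 0.63). Tmprss4 stood at 0.47 (-0.06 to 1.00) and Prss8 at 0.04 (-0.69 to 0.78). Spint2 was the exception in sign, at -0.42 (-1.17 to 0.33). None of the 6 had every PL8177 rat above, or every PL8177 rat below, every sham rat, against 6.12% and 5.69% of genes.

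**Figure D2:**
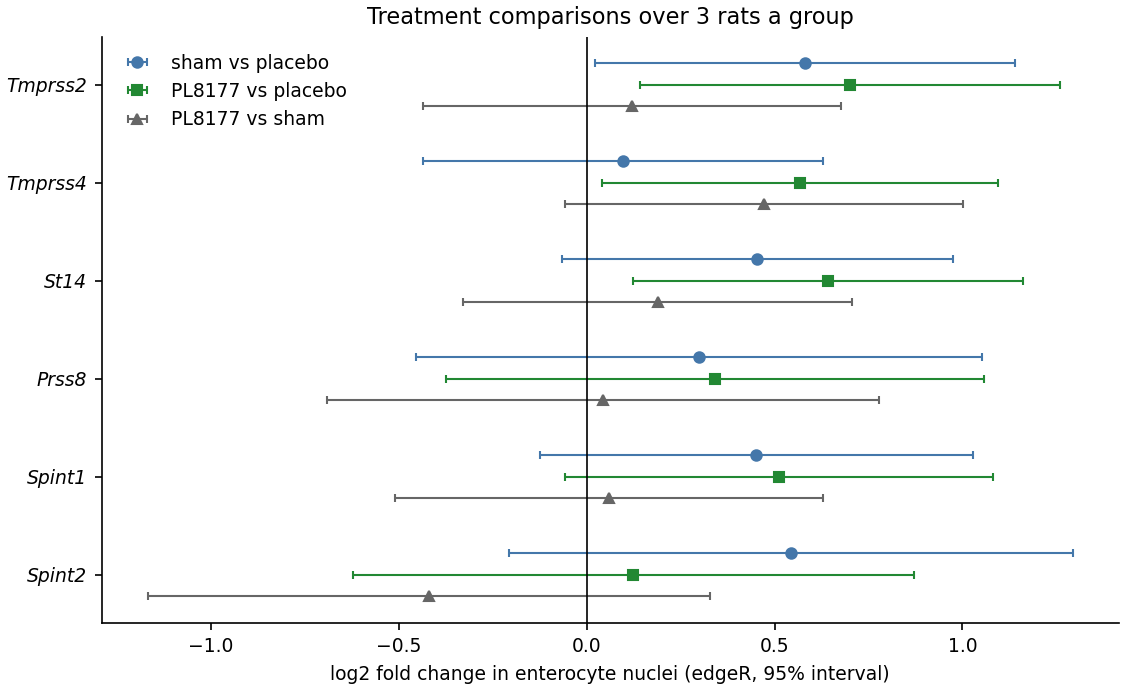
Log2 fold change (x axis) of each member gene (y axis) in enterocyte nuclei for 3 treatment comparisons, with points for the edgeR estimate and bars for its 95% interval over 3 rats a group. Tmprss2 is at 0.58 and 0.70 against placebo and at 0.12 between PL8177 and sham.

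Enterocytes change their gene programme as they move from the crypt to the surface of the colon, so the members were also compared along that axis. Nuclei of at least 300 UMIs were ranked within each rat by their share of UMIs from 10 surface genes, such as Krt20, Slc26a3 and Aqp8, none of which is a member, and split at the median into surface-high and surface-low nuclei. St14 had the highest fold change of the members. Its level was higher in surface-high nuclei in 9 of 9 rats, with a mean of 15.6 ± 2.90 (SD, n = 9) against 7.35 ± 2.50 UMIs per 10000, and the ratio within a rat ran from 1.38 to 3.12 (exact paired permutation p = 0.00391, the smallest that 9 rats allow). With rats as a block, edgeR gave a log2 fold change of 1.45 ± 0.144 (SE, adjusted p = 2.92e-07).

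Tmprss2 was also higher in surface-high nuclei in 9 of 9 rats. Its level was 43.2 ± 8.39 (SD, n = 9) against 32.0 ± 9.66 UMIs per 10000, with ratios from 1.03 in the sham rat GR13 to 1.82 in the placebo rat GR22 (exact paired permutation p = 0.00391). Spint2 was higher in 8 of 9 rats, at 22.8 ± 7.02 against 15.9 ± 6.11 (exact paired permutation p = 0.00781). Tmprss4 and Spint1 were each higher in 7 of 9 rats, with ratios of the mean levels of 1.19 and 1.20. Prss8 was higher in 2 of 9 rats, and no direction was called.

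In the edgeR fit with TMM scaling, 5 of the 6 members were called higher in surface-high nuclei, where 22.7% of the 6119 genes tested were higher and 24.7% lower. The log2 fold changes of Spint2, Tmprss2, Spint1 and Tmprss4 were 0.84, 0.79, 0.63 and 0.57, and that of Prss8 was -0.14 (edgeR adjusted p = 0.605). Scaling mattered here. With total UMIs, which moved the median of all genes by -0.35 and turned the calls from 1392 higher and 1514 lower into 773 higher and 2699 lower, St14 was the only member called, at 1.11, while Spint2, Tmprss2, Spint1 and Tmprss4 fell below the threshold at 0.49, 0.44, 0.29 and 0.23. Surface-high nuclei also carried more UMIs in most rats, such as a median of 3372 against 1200 in rat GR22. In nuclei of 300 to 1000 UMIs only, St14 (1.05) and Spint2 (0.90) were called. Tmprss4 was not called without the sham rat GR12 (0.48) or the PL8177 rat GR43 (0.48).

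**Figure D3:**
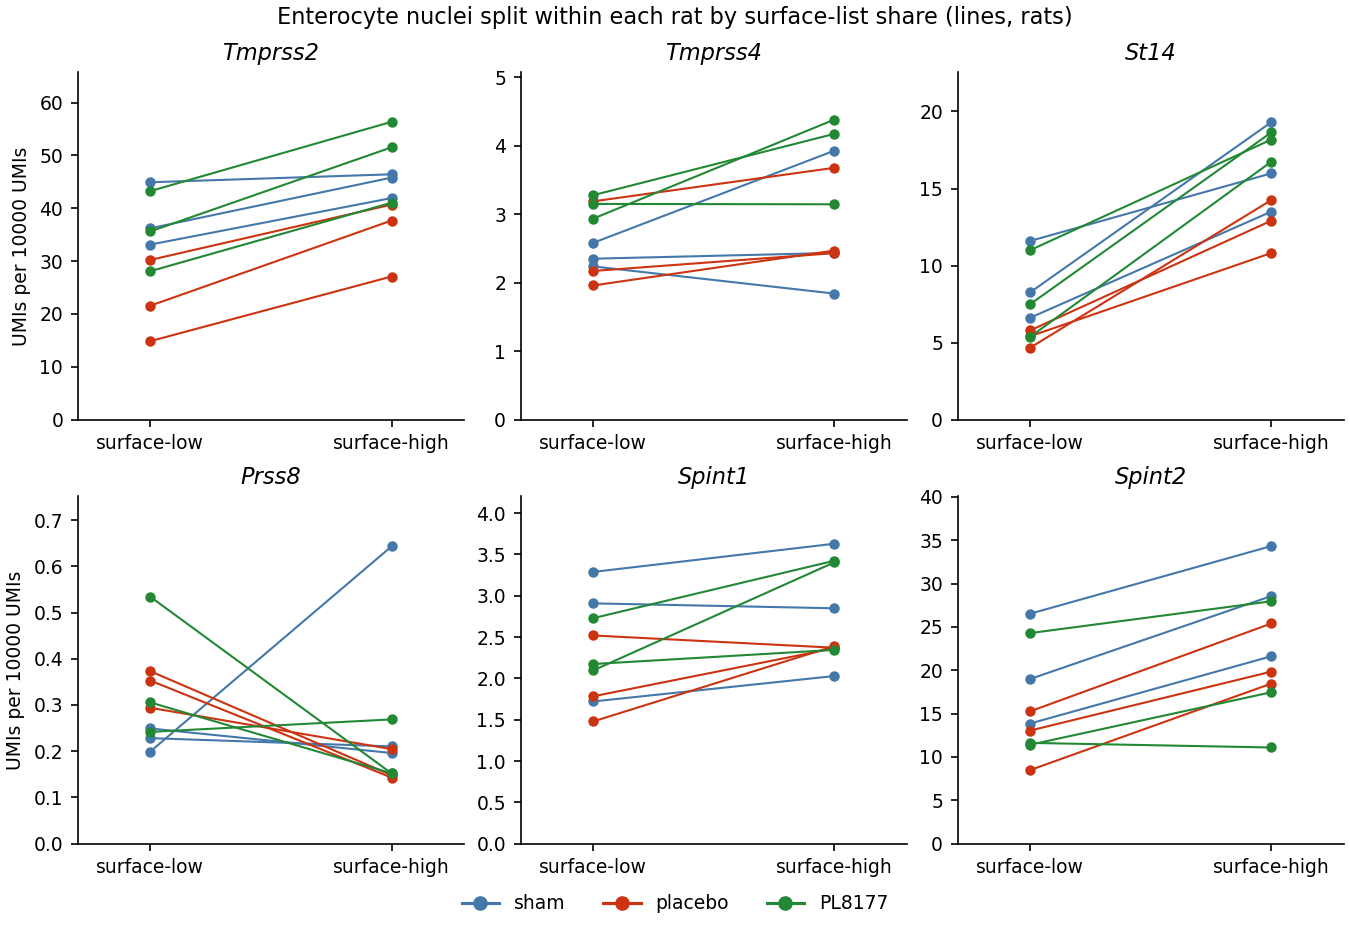
Level of each gene in UMIs per 10000 UMIs (y axis) in surface-low and surface-high enterocyte nuclei (x axis), with a line for each of 9 rats coloured by treatment. All 9 lines rise for St14 and Tmprss2, and 2 of 9 rise for Prss8.

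The treatment comparisons were also repeated within each class of nuclei. Each rat was split at its own median, so a class does not hold the level of the surface genes equal across rats. The surface genes summed to 213, 382 and 232 UMIs per 10000 in the sham rats, 199, 135 and 142 in the placebo rats and 187, 223 and 249 in the PL8177 rats. The sham rats stood above the placebo rats, and the PL8177 rats overlapped them. None of the 10 surface genes was called in a treatment comparison, where no gene was called. At an edgeR unadjusted p below 0.05, 5 of the 10 were higher in sham and 5 in PL8177 against placebo. At that level 6.54% and 5.5% of all genes were higher. Several of the 10, Krt20 and Muc13 among them, are genes that the study itself reported as higher in both groups from these nuclei. In surface-high nuclei Tmprss2 was at 41.9 to 46.4 UMIs per 10000 in sham, 27.1 to 40.7 in placebo rats and 41.0 to 56.4 with PL8177, so that neither group overlapped placebo, PL8177 by a narrow margin. Every sham rat stood above every placebo rat in this class for 1 of the 6 members and 5.62% of genes, and every PL8177 rat for 2 of the 6 (Tmprss2 and St14) and 5.07% of genes. In surface-low nuclei it was at 33.1 to 44.9, 14.9 to 30.2 and 28.1 to 43.2, where sham stayed apart from placebo and PL8177 did not. There the sham rats stood above placebo for 2 of the 6 members (Tmprss2 and St14) and 7.95% of genes, and the PL8177 rats for none of the 6 and 6.46% of genes. The log2 fold changes of Tmprss2 against placebo were 0.44 in sham and 0.60 in PL8177 in surface-high nuclei, and 1.09 and 0.90 in surface-low nuclei. St14 in surface-low nuclei was at 6.61 to 11.6 in sham, 4.66 to 5.79 in placebo and 5.37 to 10.99 in PL8177 rats, with log2 fold changes against placebo of 1.04 (edgeR adjusted p = 0.145) and 0.81 (adjusted p = 0.465). In surface-high nuclei it was at 13.5 to 19.3, 10.8 to 14.3 and 16.7 to 18.6, so that sham overlapped placebo there and PL8177 did not. No member was called in either class, which were tested separately after the data were seen. The part of the surface programme in the treatment differences was not tested.

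Nuclei that carried cell cycle genes were compared with the others. Those with at least 2 UMIs from 20 cell cycle genes made up 0.822% to 11.9% of the nuclei of a rat, from 5 nuclei in rat GR15 to 139 in rat GR43, against nuclei that held none. Tmprss2 was lower in them in 9 of 9 rats, at 31.6 ± 8.34 (SD, n = 9) against 39.9 ± 8.42 UMIs per 10000 (exact paired permutation p = 0.00391). St14 was lower in 8 of 9 rats, at 9.66 ± 3.95 against 12.8 ± 2.33 (exact paired permutation p = 0.00781). The nuclei with cell cycle genes were also deeper in 8 of 9 rats, with a median of 3645 against 1773 UMIs in rat GR43, and the part of depth in these values was not tested. In the edgeR fit neither passed, with log2 fold changes of -0.54 ± 0.193 (SE, adjusted p = 0.169) and -0.46 ± 0.161 (adjusted p = 0.162), and no member was among the 41 genes called lower (0.736% of 5574) or the 14 called higher (0.251%). Without a filter on low counts, Tmprss2, St14, Spint1 and Spint2 were called lower, at -0.70, -0.62, -0.58 and -0.53. Tmprss4 differed in sign, at 0.09 in the fit and higher in 7 of 9 rats.

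T cell tables set the background for these epithelial genes. With the rat as a block, all 5 members that could be tested were called higher in enterocytes, as were 20.7% of 5194 genes, while 13.3% of genes were called higher in T cells. The log2 fold changes were 1.77 ± 0.330 (SE) for Tmprss2, 1.93 ± 0.339 for St14, 1.99 ± 0.288 for Spint2, 1.38 ± 0.304 for Spint1 and 1.19 ± 0.324 for Tmprss4, with edgeR adjusted p from 1.61e-05 to 0.00629. Prss8 had too few counts to be tested. These 5 calls held in every alternative run, total UMIs included, although that scaling moved the median of all genes by -0.30 and the calls from 1076 higher and 693 lower to 711 higher and 1130 lower. Rat by rat, Tmprss2 was higher in enterocytes in 8 of 9 rats, at 2.33 to 4.34 times the T cell level, and lower in rat GR23.

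In the T cell tables Tmprss2 was at 10.6, 18.6 and 8.39 UMIs per 10000 in the sham rats, 6.52, 57.0 and 11.6 in the placebo rats and 12.5, 15.9 and 15.2 in the PL8177 rats. The value of 57.0 belonged to rat GR23 and exceeded that of every enterocyte sum. A class of 235 T cell table nuclei, chosen after the data were seen, had a T cell marker UMI and enterocyte marker UMIs that did not outnumber those of T cells. It held Tmprss2 at 7.72 UMIs per 10000 (exact Poisson 95% interval 6.80 to 8.73), the other 783 nuclei at 49.8. Rat GR23 supplied 661 of those 783 nuclei, and without it the classes, of 211 and 122 nuclei, held Tmprss2 at 7.71 and 16.7. St14 stood at 2.58 and 12.1 in these 2 classes, and at 2.63 and 4.18 without rat GR23. Spint2 stood at 3.19 and 10.1, and at 3.09 and 6.83 without it. The classes did not separate in every rat, since Tmprss2 was at 5.67 and 6.94 in rat GR22 and St14 at 3.07 and 3.04 in rat GR12. In rat GR23 itself the 24 nuclei of the first class had Tmprss2 at 7.93 and those of the second at 58.4.

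The treatment comparisons of the T cell tables turned on that rat. Tmprss2, which the study reported as lower in T cells of both groups by a test over nuclei, depended on it in sign. Its log2 fold change was -1.46 in sham and -1.12 in PL8177 against placebo, and 0.26 and 0.64 without rat GR23. St14 had -1.76 and -0.93, and -0.24 and 0.52 without it. The edgeR fit called none of the 1828 genes it tested (percent called 0), and DESeq2, run on every gene with a count, called none either. By edgeR 90 and 18 genes passed an unadjusted p of 0.05. The part of the enterocyte markers of that rat in these values was not tested. Prss8 and Spint1 were too low to be tested. A test of whether the enterocyte and T cell changes differed, added after the data were seen, found 0 of 5194 genes in sham and in PL8177 by edgeR, with 339 and 181 passing an unadjusted p of 0.05.

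**Figure D4:**
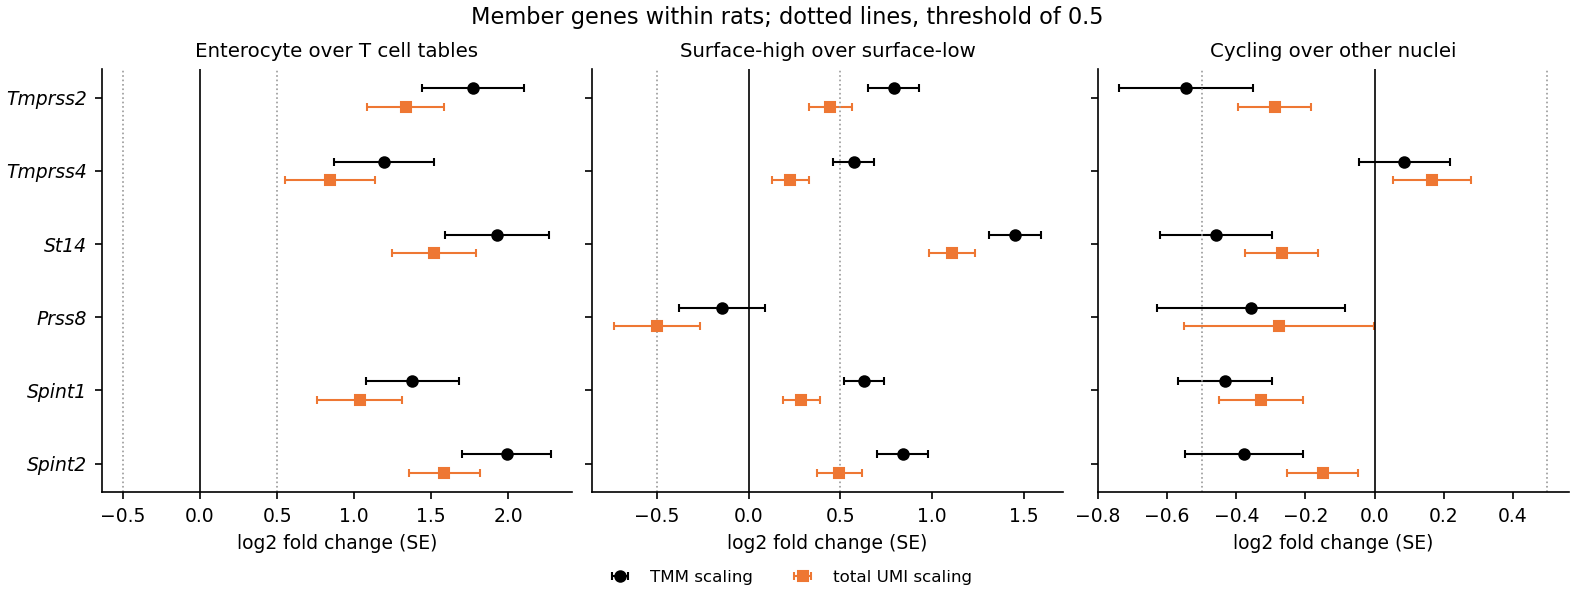
Log2 fold change (x axis) of each member gene (y axis) in 3 comparisons within rats, with points for the edgeR estimate under TMM (black) and total UMI (orange) scaling, bars for the SE and dotted lines at the threshold of 0.5. St14 in surface-high nuclei is at 1.45 and 1.11, while Tmprss2 is at 0.79 and 0.44.

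The proteins that these proteases cut, or that act beside them, were taken from lists of related genes. Of 18 substrates and receptors, 9 had enough enterocyte counts to be tested and none was called. In each comparison 6 stood above placebo and 3 below, but not the same genes, since Epcam and Plaur changed side. Scnn1a, a subunit of the epithelial sodium channel that such proteases activate, stood at 4.74 ± 0.984 (SD, n = 3) UMIs per 10000 in sham, 2.36 ± 0.0863 in placebo rats and 4.32 ± 0.327 with PL8177. Every sham rat and every PL8177 rat stood above every placebo rat, which held for 5.23% and 4.62% of genes. The log2 fold changes were 1.16 ± 0.233 (SE, edgeR adjusted p = 0.118) and 1.04 ± 0.231 (adjusted p = 0.242). The study itself reported Scnn1a as higher in both groups from these nuclei, so its direction is not independent evidence. Further subunits of the channel were barely counted. Scnn1b had 4, 8 and 6 UMIs and Scnn1g 2, 0 and 1 UMIs in the sham, placebo and PL8177 enterocytes. Epcam, an adhesion protein cut by matriptase, had -0.32 ± 0.324 in sham and 0.46 ± 0.323 in PL8177. Cdcp1, a membrane protein that matriptase cuts, had 0.41 ± 0.282 and 0.85 ± 0.272. Plaur, the urokinase receptor, had 0.85 ± 0.383 and -0.01 ± 0.379. F2rl1, which encodes PAR2, had 0.48 ± 0.260 and 0.30 ± 0.253, and Met, the receptor of the growth factor that these proteases can activate, had 0.43 ± 0.217 and 0.21 ± 0.214.

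Few other genes of the protease class were seen. Of 20 further membrane and related serine proteases, Prss30 alone had enough counts to be tested, with log2 fold changes of 0.29 ± 0.322 (SE) in sham and 0.23 ± 0.307 in PL8177 against placebo. Tmprss9 had 4, 5 and 5 UMIs and Corin 6, 4 and 3 UMIs in the sham, placebo and PL8177 enterocytes. Of 14 other protease inhibitors, 3 were tested, Serpinb1a at 0.03 and 0.39, Serpinb5 at -0.84 and -0.12 and Wfdc2 at -1.01 and 0.09. Of 8 furin-like and shedding proteases, 6 were tested, with Adam10 at 0.43 and 0.58, Adam17 at 0.11 and 0.47, Pcsk7 at -0.36 and 0.01 and Furin at -0.48 and -0.22. None of these genes was called.

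The related genes were also compared along the surface axis. Among 7 substrates and receptors tested there, 4 were called higher in surface-high nuclei, against 22.7% of all genes tested, namely Plaur (1.95 ± 0.169, SE), F2rl1 (1.73 ± 0.153), Scnn1a (1.26 ± 0.184) and Epcam (0.82 ± 0.132). Prss30 (1.07 ± 0.212), Serpinb1a (1.60 ± 0.152), Furin (1.32 ± 0.163) and Adam10 (0.53 ± 0.108) were also called higher, and Serpinb5 (-0.76 ± 0.178) and Mmp14 (-0.98 ± 0.207) lower. These values carry the scaling shift given above. Plaur was also called lower in the nuclei with cell cycle genes, at -0.87 ± 0.156.

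**Figure D5:**
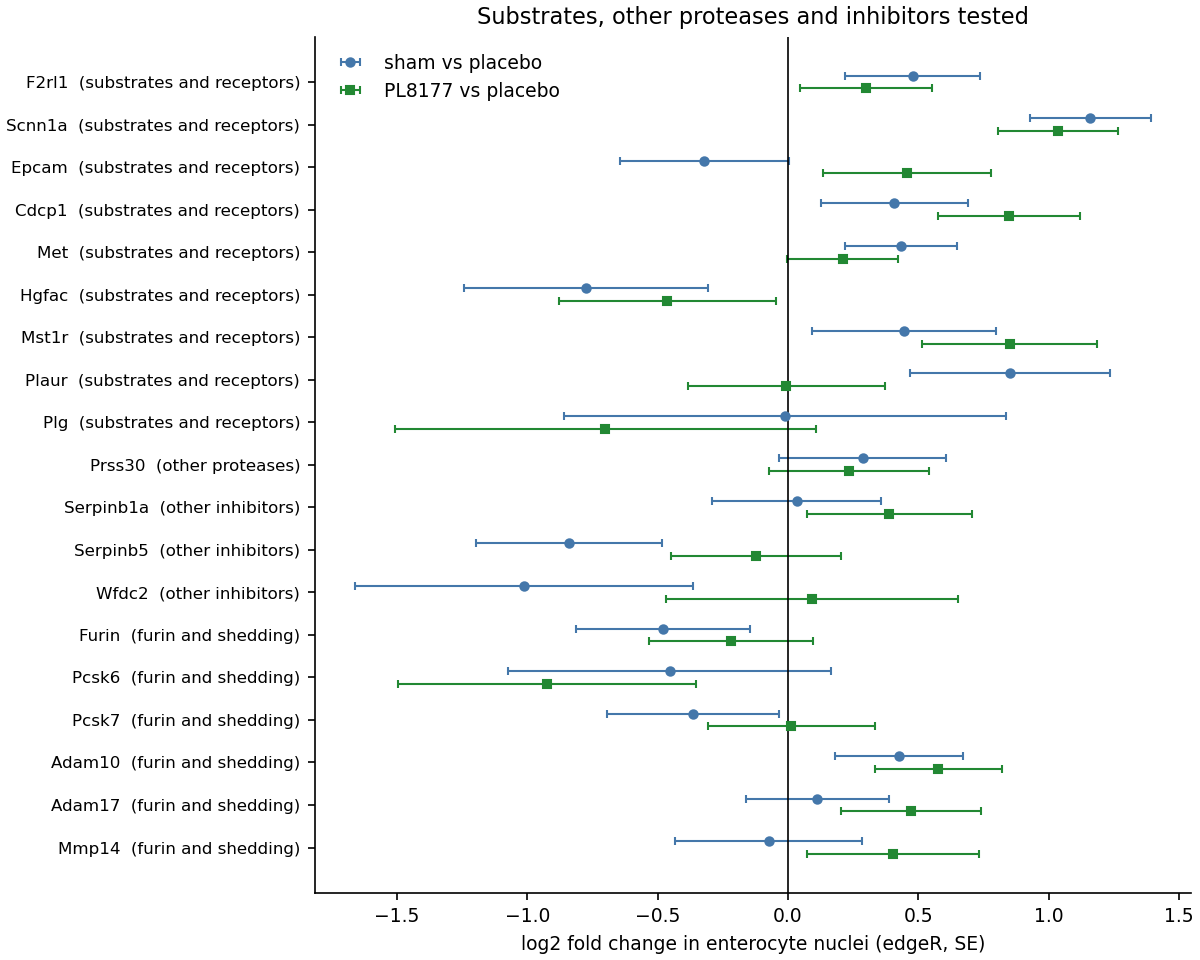
Log2 fold change (x axis) of the related genes with enough counts to be tested (y axis, grouped by role) in enterocyte nuclei for sham and PL8177 against placebo, with points for the edgeR estimate and bars for the SE. Scnn1a has the highest value in both comparisons, 1.16 and 1.04.

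The genes whose pattern over the 9 enterocyte sums came closest to that of Tmprss2 were Map3k14, which encodes the NF-kB-inducing kinase, Cmip, Upf2, a factor of nonsense-mediated decay, Hpcal1 and Slk. Likeness was the root mean square difference of centred log2 levels, and was 0.09, 0.14, 0.15, 0.16 and 0.17. Among 9424 genes St14 was at rank 180 of likeness to Tmprss2 (0.28), Spint1 at 315 (0.31), Prss8 at 1255 (0.40), Tmprss4 at 2198 (0.47) and Spint2 at 2439 (0.48). St14 in turn was as close to Tmprss4 (0.27) as to Tmprss2 (0.28). Spint2 was farthest from Tmprss4 (0.67).

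Within nuclei thinned to 300 UMIs, proteases and inhibitors were found together close to the rate that their separate shares give. Tmprss2 and Spint2 UMIs met in a median of 25.9% of the nuclei of a rat, with 24.3% if they were independent. St14 and Spint2 met in 10.8% against 9.17%, and in more nuclei than independent shares give in 7 of 9 rats. Tmprss4 and St14 met in 2.59% against 2.09%, more than independent shares give in 9 of 9 rats, with a ratio of 1.03 to 1.62. Tmprss2 and Prss8 met in more nuclei than independent shares give in 2 of 9 rats. These shares are a description, since all genes of a nucleus share its library, and they were not tested within the surface classes.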

How the data were processed

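Single nuclei RNA sequencing libraries of rat colon were counted by the authors, per the labels and the paper's methods, with Cell Ranger 6.0.1 on Rnor 6.0, introns included, cleaned with CellBender, filtered (at least 200 genes, under 5% mitochondrial reads) and typed with Seurat 4.0.3. The deposited values are whole UMI counts, not normalized, for enterocytes and T cells of each treatment. Rats were told apart by the prefix of the nucleus names, since the labels do not list them, and no source says more about them. Each rat is 1 library. The placebo T cell table ends early, so T cells were compared over 15108 of 17388 genes. Distinct barcodes numbered 9790 for 9800 nuclei, 10 barcodes occurred in more than 1 rat, and none was in both cell types.

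Counts were summed per rat and tested with edgeR 4.0.16 (R 4.3.3, TMM, filterByExpr, quasi-likelihood, Benjamini-Hochberg), with all 3 treatments in 1 fit per cell type and the rat as a block within rats. Thresholds were an adjusted p of 0.05 and an absolute log2 fold change of 0.5, or 1.5 in T cells. DESeq2 1.42.0 was the alternative test. Single values used exact permutation tests over rats (scipy 1.17.1). Scrublet called 54 enterocyte and 3 T cell nuclei as doublets (0.582%), which were kept in the main values. The fits were tested on simulated data with changes larger than those of the members between treatments in enterocytes. That test does not show whether changes as small as theirs would be found. The members and lists were chosen with earlier results of these data known. Named genes were the 6 members, the 3 of each role list with most enterocyte UMIs, list genes past the threshold and the 5 genes most like Tmprss2 over rats. Plaur, F2rl1, Cdcp1, Furin, Mmp14, Scnn1b and Scnn1g, and the related genes called along the surface axis, were named after their values were seen. The other alternatives were no filter on low counts, total UMIs, leaving out each rat, a minimum of 500 genes per nucleus, no doublets, thinning to 300 UMIs, a split into the top and bottom of 3 equal classes by the surface list and at least 3 cell cycle UMIs. Counting intervals are 95% and cover counting error only.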

Additional observations from a re-analysis of the deposited data

How the results depend on the processing

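Treatments could not be compared in pairs, because each rat had 1 treatment only. Within rats, fits without the rat as a block called 2 genes for cycling nuclei, where the block gave 55, and did not change a call of a member. Calls over all genes moved with the method. DESeq2 called 115, 70 and 4 genes for sham against placebo, PL8177 against placebo and PL8177 against sham, no filter on low counts 51, 8 and 10, and total UMIs and thinned nuclei 5 and 8 for sham against placebo. Surface-low nuclei alone, added after the data were seen, gave 2 for sham and 1 for PL8177. T cells gave 33 and 4 with no filter. Enterocyte against T cell calls were 3298 by DESeq2 and 3881 with no filter, surface calls 4909 with no filter and 881 in nuclei of 300 to 1000 UMIs (added after the data were seen), and cycling calls 27 by DESeq2, 181 with no filter, 28 with total UMIs and 20 with at least 3 cell cycle UMIs, which dropped rat GR15. The cause was not tested. Leaving out each rat gave 0 to 8, 0 to 0 and 0 to 2 calls for the 3 enterocyte comparisons, 1160 to 2780 for enterocytes against T cells, 2545 to 3602 for the surface classes, 14 to 92 for cycling nuclei, and 0 to 4 and 0 to 3 for the enterocyte minus T cell change.

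No member was called between treatments in any alternative run. Signs turned for Tmprss4 in sham against placebo with total UMIs (-0.0457) and thinned nuclei (-0.0634), with 1 rat left out (-0.10 to 0.34), and for Prss8 in surface-low nuclei (-0.28). Against placebo, PL8177 turned for Spint2 with total UMIs (-0.0634), in surface-high nuclei (-0.0633) and with 1 rat left out (-0.31 to 0.37). PL8177 against sham turned in thinned nuclei for Tmprss2 (-0.0522), St14 (-0.0700), Prss8 (-0.53) and Spint1 (-0.13), in surface-low nuclei for Tmprss2 (-0.19), St14 (-0.23) and Spint1 (-0.27), in surface-high nuclei for Prss8 (-0.64), and with 1 rat left out for St14 (-0.00952 to 0.29), Prss8 (-0.19 to 0.29) and Spint1 (-0.18 to 0.32). Among T cells, with 1 rat left out, Tmprss2 ran from -1.97 to 0.26 in sham and -1.61 to 0.64 in PL8177, St14 from -1.33 to 0.52 and Spint2 from -0.83 to 0.39 in PL8177. Tmprss4 in cycling nuclei turned with no filter (-0.0354) and with at least 3 cell cycle UMIs (-0.0474), and Prss8 in surface-high nuclei ran from -0.34 to 0.0534. The enterocyte minus T cell change in PL8177 ran from -0.35 to 1.74 for Tmprss4, -0.0237 to 1.53 for St14, -0.19 to 1.19 for Spint1 and -0.42 to 0.54 for Spint2, and was -0.12 for Spint2 with total UMIs. As a mean over nuclei, Prss8 differed from placebo by -0.0412 UMIs per 10000 in sham and -0.0906 in PL8177. The UMI sums of the T cell tables, down to 8070 per rat, limit what could be detected there.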
